A study of Mus musculus with 20 samples.

Results

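Nefl, Nefm, Nefh and Ina encode the neurofilament light, medium and heavy chains and alpha-internexin, the intermediate filament subunits of mature central neurons. These 4 genes were chosen by name, were matched by symbol to the Ensembl identifiers of the count tables, and stand among 46078 gene identifiers in each of 20 bulk RNA-Seq libraries. The libraries came from 18-month-old wild type C57BL/6J male mice, 7 weeks after DH stroke, a model in which a branch of the middle cerebral artery is closed and the animal is kept in low oxygen. From week 1 the mice received subcutaneous injections 3 times per week for 6 weeks, either of sterile PBS (vehicle) or of HPBCD at 4 g/kg. HPBCD, hydroxypropyl-beta-cyclodextrin, is a cyclic sugar that carries cholesterol. Tissue was taken from the peri-infarct region and from the matching contralateral cortex of 5 mice per treatment, which gave 4 groups of 5 libraries, and all mice, vehicle included, had a stroke. The peri-infarct and contralateral libraries of 1 number within a treatment carry the same mouse identifier, so the 2 regions were sampled from the same 10 mice.

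Neurofilaments fill the axons of large projection neurons, where they set axon caliber and therefore conduction speed. The light chain and alpha-internexin can form the core of the filament, whereas the medium and heavy chains carry long tails that extend sideways and are phosphorylated at repeated Lys-Ser-Pro motifs. In the adult brain, neurons rich in neurofilament include large pyramidal cells and fast-spiking interneurons, and neurofilament light chain released into fluids is a widely used marker of axonal damage.

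In the GRCm38 annotation, Nefl (ENSMUSG00000022055) lies at chr14:68083863-68089095 on the forward strand with 4 exons. Nefm (ENSMUSG00000022054) lies on the reverse strand at chr14:68082590-68124846 and has 2 annotated transcripts. The main one, Nefm-201, has 3 exons and ends at 68119283, whereas the last of the 4 exons of Nefm-202 reaches across the start of Nefl. That exon shares 1108 bp with exon 1 of Nefl on the opposite strand, which is 32.8% of the exonic length of Nefl and 19.2% of that of Nefm. Nefh (ENSMUSG00000020396) lies at chr11:4938754-4948064 on the reverse strand, has 4 exons and overlaps no other exon. Ina (ENSMUSG00000034336) lies at chr19:47014698-47025327 on the forward strand, has 3 exons, and shares 456 bp, 14.1% of its exonic length, with the opposite-strand gene Nt5c2. The libraries were stranded, but the strand option used in counting is not given in the sources used here, so reads over these shared stretches are uncertain in their assignment for Nefl, Nefm and Ina but not for Nefh. Nt5c2, the opposite-strand partner of Ina, had a mean of 50.8 to 55.7 CPM (counts relative to the TMM-scaled library total) in every group.

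The tail repeats are shown because the heavy and medium chains, which carry them, showed the largest region differences below. The coding sequence of Nefh-201 has 1090 codons and holds 51 Lys-Ser-Pro codon triplets between codons 522 and 887, that of Nefm-201 has 848 codons with 4 triplets between codons 501 and 609, and those of Nefl (543 codons) and Ina (501 codons) have 0. The 50-codon window of each transcript with the most triplets is given below from the GENCODE transcripts, 5′ to 3′ on the coding strand, with the Lys-Ser-Pro codons in capitals. The Nefh window spans codons 517 to 566, holds 8 triplets and lies in exon 4 (chr11:4940920-4941069), and the Nefm window spans codons 458 to 507, holds 2 triplets and lies in exon 3 (chr14:68121063-68121212).
Nefh: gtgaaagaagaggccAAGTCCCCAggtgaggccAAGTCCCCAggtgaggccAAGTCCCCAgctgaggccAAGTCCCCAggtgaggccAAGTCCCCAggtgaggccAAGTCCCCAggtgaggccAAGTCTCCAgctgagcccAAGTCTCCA
Nefm: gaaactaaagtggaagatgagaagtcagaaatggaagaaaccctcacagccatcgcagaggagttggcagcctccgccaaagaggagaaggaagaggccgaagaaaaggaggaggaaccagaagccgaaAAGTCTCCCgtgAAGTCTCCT
In Nefh the triplets recur through the whole window. The window printed is the first with the highest count, so the place of the Nefm triplets at its end follows from that choice. Reads of 75 bases from such a repeat can fit several places within Nefh itself, which does not move them to another gene. Reads aligned to several places were not counted to genes, however, so the Nefh level may be too low. How many Nefh reads were lost was not tested.

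Of the 4 genes, Ina was matched in the RefSeq promoter table of GRCm38.p6. Its 250 bases before the start site (chr19:47014431-47014680, forward strand) are printed because it was the 1 gene of the 4 with an entry. The capitals mark the GC box GGGCGG, read on the reverse strand.
Ina: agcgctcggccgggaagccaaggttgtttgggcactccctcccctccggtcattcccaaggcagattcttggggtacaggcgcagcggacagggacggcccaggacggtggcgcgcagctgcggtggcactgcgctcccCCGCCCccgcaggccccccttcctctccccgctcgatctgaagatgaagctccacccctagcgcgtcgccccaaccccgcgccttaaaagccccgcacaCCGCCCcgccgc
With the 50 bases after the start site included, the window was 71.7% G and C, against a median of 52.7% over 32851 promoters, and 92.6% of them were lower. It held 2 GC boxes, a motif found on either strand in 35.7% of promoters of this length. TATAAA, the CRE motif TGACGTCA, the E-box CACGTG and CCAAT, each searched on both strands, were not in this window and were found in 13.6%, 1.79%, 7.15% and 37.4% of promoters.

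Each library held 14445021 to 22171627 reads counted to genes (median 19008532), and the 4 genes were read at 315 to 12456 counts per library, so counting error was small beside the spread between mice. Marker genes were checked against the tissue labels. Pan-neuronal genes (11 of 11 above the detection floor of 3 counts) summed to 11916 to 13567 CPM in vehicle contralateral libraries, 7442 to 10445 in vehicle peri-infarct, 13410 to 14361 in HPBCD contralateral and 3904 to 8266 in HPBCD peri-infarct libraries. Striatal projection neuron genes summed to 3904 CPM in vehicle contralateral replicate 1 and to 231 to 314 CPM in the other contralateral libraries, so that library stands apart, and HPBCD contralateral replicate 3 stands apart in ependyma and choroid plexus genes, at 613 CPM against 5.30 to 32.7 CPM. HPBCD contralateral replicate 4 had 8.03% ambiguous reads, where the other 19 libraries had at most 4.16%, and also had the highest share of reads in no feature. No gene in the tables marks the treatment, so the treatment labels could not be checked from the counts. The names of the deposited tables carry the labelled treatment in 20 of 20 libraries. An exchange of the vehicle and HPBCD labels would turn the sign of every treatment and interaction value below, the treatment differences of Gfap and the pan-neuronal genes included, while the region differences of the 4 genes would keep their sign in both treatment groups.

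In contralateral cortex of vehicle mice the neurofilament light chain gene was the most abundant of the 4 per length of exon. Nefl was measured at 126 ± 8.80 CPM per exon kilobase (SD, n = 5), Nefm at 78.8 ± 13.9, Ina at 71.7 ± 6.84 and Nefh at 23.7 ± 5.90. Nefm and Ina, neighbours in this order, did not differ beyond their spread. The place of Nefm depends on the length used, since over the main transcript alone it was 137 ± 24.1 CPM per kilobase, above but overlapping Nefl. By level per exon kilobase Nefm ranked 493 and Nefh 2002 among 45143 annotated genes, so all 4 were well measured. The heavy chain was the scarcest of the 4 as counted, and the effect of reads lost in its repeat was not tested.

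All 4 genes were lower in peri-infarct than in contralateral tissue of vehicle mice, the heavy and medium chains most. Fitted peri-infarct levels were 37.5% of contralateral for Nefh, 41.5% for Nefm, 58.8% for Nefl and 64.3% for Ina. The 2 regions did not overlap in any of the 4 genes. In bulk tissue, fewer cells of a type and less RNA per cell cannot be told apart.

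Nefh, the heavy chain gene, measured 89.6, 114, 81.6, 65.2 and 123 CPM in contralateral replicates 1 to 5 of vehicle mice, and 44.3, 40.5, 29.3, 33.9 and 30.8 CPM in their peri-infarct replicates. The lowest contralateral library lay well above the highest peri-infarct library. Its log2 fold change was -1.41 (SE 0.18, adjusted p = 0.00146), and it ranked 34 from the most negative of 15801 genes tested. Nefm, the medium chain gene, measured 519, 487, 359, 380 and 532 CPM in contralateral replicates and 195, 209, 191, 196 and 162 CPM in peri-infarct replicates. The 5 peri-infarct values were close together, whereas contralateral replicates 3 and 4 lay below the others. The log2 fold change of Nefm was -1.27 (SE 0.12, adjusted p = 0.00115).

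Nefl, the light chain gene, measured 400, 438, 440, 391 and 462 CPM in the contralateral replicates of vehicle mice and 280, 299, 219, 237 and 228 CPM in the peri-infarct replicates. It was the least variable of the 4 genes in contralateral cortex of vehicle mice, and its log2 fold change was -0.77 (SE 0.10, adjusted p = 0.00146). Ina, the alpha-internexin gene, measured 220, 247, 226, 206 and 262 CPM in contralateral replicates and 160, 166, 102, 145 and 181 CPM in peri-infarct replicates. Peri-infarct replicate 3 was the lowest, and the log2 fold change was -0.64 (SE 0.13, adjusted p = 0.00768). Thus 4 of 4 genes were called lower at an adjusted p under 0.05, where 9.70% of the 15801 genes tested were called lower, and 4 of 4 were lower with groups that did not overlap, where 6.70% of genes were. Without vehicle contralateral replicate 1 the values were -1.42 for Nefh, -1.20 for Nefm, -0.78 for Nefl and -0.64 for Ina, and all 4 calls held.

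The same 4 genes were lower in peri-infarct tissue of mice labelled HPBCD, with fitted levels of 23.0% of contralateral for Nefh, 27.8% for Nefm, 38.1% for Ina and 39.0% for Nefl. The heavy chain gene was again the lowest relative to contralateral tissue, and the groups did not overlap for any gene. Nefh measured 126, 136, 129, 146 and 119 CPM in HPBCD contralateral replicates 1 to 5 and 21.1, 49.6, 25.5, 17.4 and 36.2 CPM in the peri-infarct replicates. The peri-infarct values spread widely, with replicate 2 highest and replicate 4 lowest. Nefm measured 593, 629, 525, 630.4 and 623 CPM contralaterally and 158, 205, 133, 132 and 203 CPM in peri-infarct tissue. In Nefm the gap between the regions was wider than the range within either of them.

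Nefl measured 521, 487, 430.2, 484 and 512 CPM in HPBCD contralateral replicates and 187, 272, 150.2, 129 and 205 CPM in peri-infarct replicates. Ina measured 264, 279, 255, 281 and 276 CPM contralaterally and 105, 137, 85.2, 67.9 and 120 CPM in peri-infarct tissue. In both genes peri-infarct replicate 4 was the lowest and replicate 2 the highest, as in Nefh. The log2 fold changes were -2.12 for Nefh (SE 0.25, adjusted p = 1.46e-05), -1.85 for Nefm (SE 0.15, adjusted p = 1.10e-06), -1.39 for Ina (SE 0.17, adjusted p = 1.88e-05) and -1.36 for Nefl (SE 0.18, adjusted p = 4.21e-05). All 4 were called lower, against 24.3% of 16047 genes tested, and all 4 were lower without overlap, against 18.3% of genes. Without HPBCD contralateral replicate 3 the values were -2.13, -1.89, -1.41 and -1.40 in the same order, and without HPBCD contralateral replicate 4 they were -2.08, -1.83, -1.38 and -1.36. The 4 calls held in both fits.

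**Figure D1:**
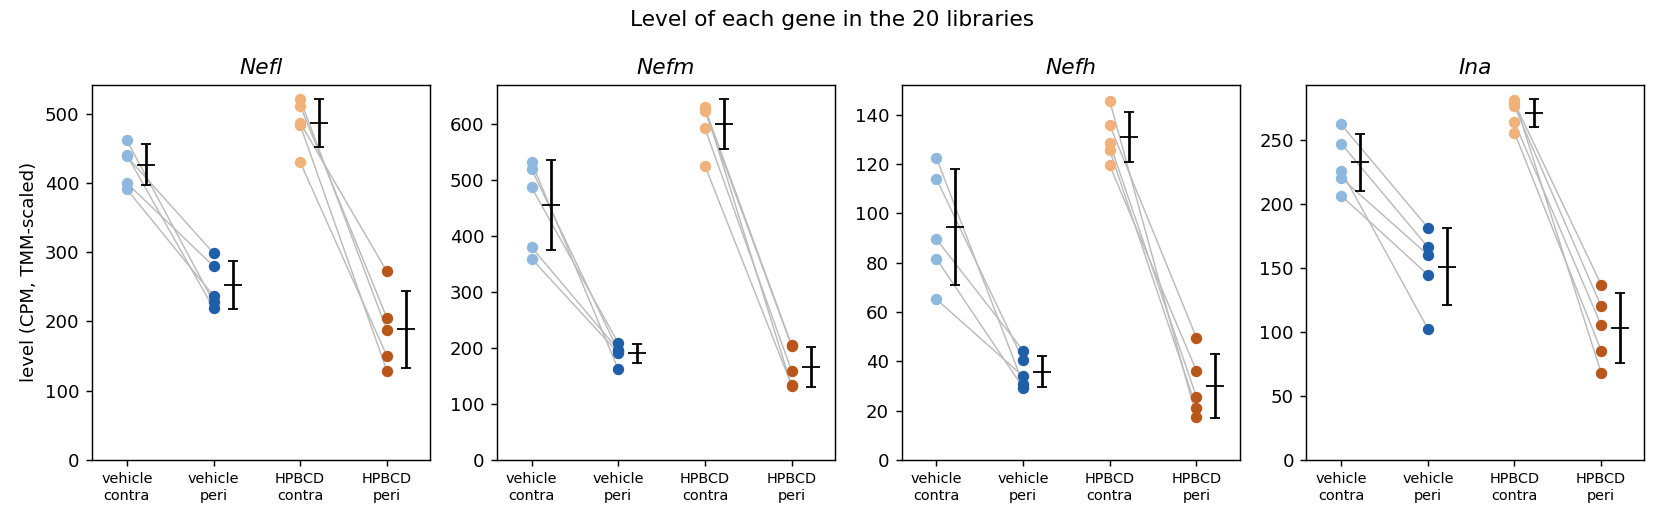
Level of each gene in CPM (TMM-scaled, linear axis from 0) in the 20 libraries, by treatment and region. Points are libraries, grey lines join the regions of a mouse, and bars give the mean ± SD (n = 5). Within each treatment all contralateral points lie above all peri-infarct points in the 4 genes.

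Within single mice the direction was the same throughout. In 5 of 5 vehicle mice and 5 of 5 HPBCD mice the peri-infarct library lay below the contralateral library of the same mouse for each of the 4 genes. Among vehicle mice the peri-infarct level of Nefh was 25.2% to 52.0% of contralateral (median 35.9%), that of Nefm 30.4% to 53.1% (median 42.9%), that of Nefl 49.4% to 70.0% (median 60.6%) and that of Ina 45.3% to 72.7% (median 69.2%). Among HPBCD mice the ranges were 11.9% to 36.5% for Nefh (median 19.8%), 20.9% to 32.6% for Nefm (median 26.7%), 26.6% to 55.9% for Nefl (median 36.0%) and 24.2% to 49.1% for Ina (median 39.9%). HPBCD mouse 4 had the lowest percentage of the HPBCD mice in all 4 genes, and the ranges of the 2 treatments overlapped in Nefl, Nefm, Nefh and Ina.

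**Figure D2:**
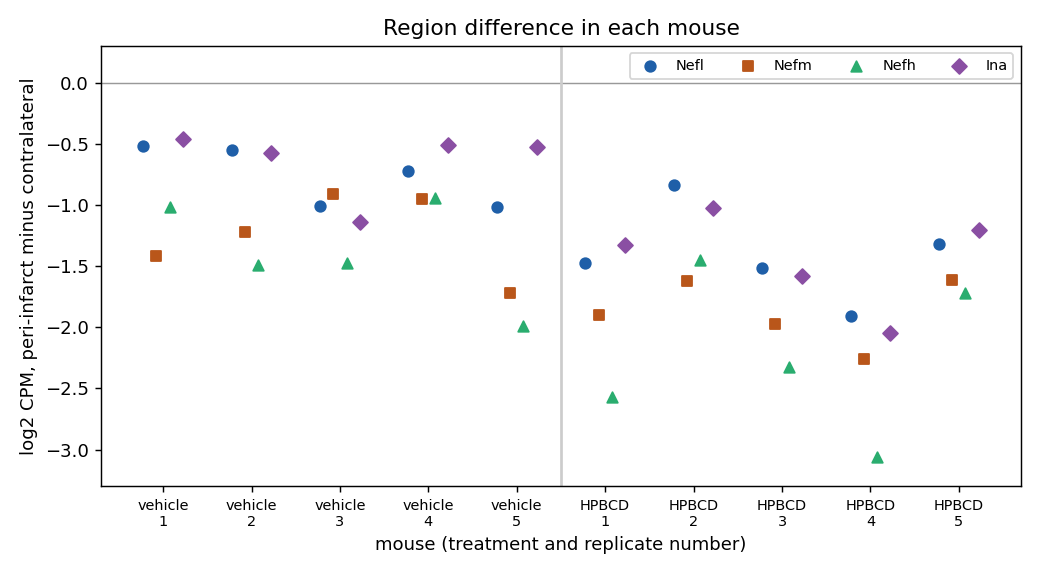
Difference in log2 CPM between the peri-infarct and the contralateral library of each of 10 mice (x axis, treatment and replicate number) for the 4 genes. All points lie below 0, and the lowest is Nefh in HPBCD mouse 4, where the peri-infarct level was 11.9% of contralateral.

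Other neuronal transcripts were also lower in peri-infarct tissue, so the 4 genes were compared with 11 pan-neuronal genes, among them Rbfox3, which encodes the nuclear protein NeuN, and Snap25, a synaptic release protein. In vehicle mice 0 of these rose and 4 of 11 were called lower (median log2 fold change -0.27, against 0.01 over all genes), with Snap25 at -0.93, Rbfox3 at -0.60 and the glycolytic enzyme gene Eno2 at -0.37. In HPBCD mice 11 of 11 were called lower (median -0.87, against 0.03 over all genes). Fits in which each library was scaled to the geometric mean of the pan-neuronal genes moved the median of all genes to 0.35 in vehicle and 1.08 in HPBCD mice.

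Relative to the pan-neuronal genes the 4 genes were still lower in peri-infarct tissue, by less. In vehicle mice the log2 fold changes were -1.10 for Nefh (adjusted p = 0.00235), -0.94 for Nefm (adjusted p = 0.00235), -0.45 for Nefl (adjusted p = 0.00370) and -0.33 for Ina (adjusted p = 0.0184). All 4 were called lower, where 1.60% of genes were and 42.8% were called higher, and Ina was the gene of the 4 whose groups overlapped on this scale. In HPBCD mice they were -1.17 for Nefh (adjusted p = 4.86e-05), -0.85 for Nefm (adjusted p = 9.72e-05), -0.42 for Ina (adjusted p = 0.00647) and -0.39 for Nefl (adjusted p = 0.0123). Here too 4 of 4 were called lower, where 1.39% of genes were and 84.4% were called higher. The small shares called lower go with the upward shift that this scaling gives all genes. Of the 11 pan-neuronal genes themselves, 2 were called lower and 2 higher on this scale in each treatment. The size depended on the neuronal list: with a second list of 8 genes the values in HPBCD mice were -0.67 for Ina and -0.65 for Nefl, and that of Ina in vehicle mice was -0.49, with 4 of 4 called lower in both treatments. Over all genes that list gave 3505 of 15801 called in vehicle and 11921 of 16047 in HPBCD mice, in either direction. The Ina call in vehicle mice rested on 1 library, since without vehicle contralateral replicate 5 its adjusted p was 0.0514.

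**Figure D3:**
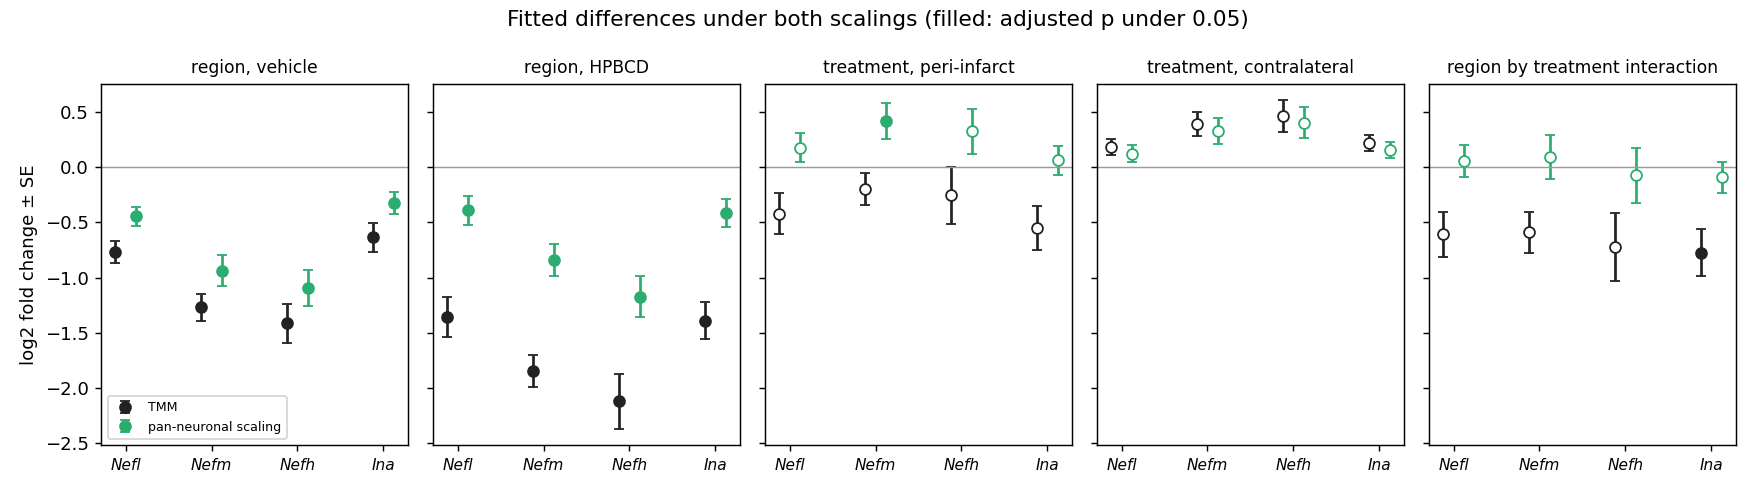
Fitted log2 fold changes ± SE of the 4 genes in 5 comparisons with TMM scaling (black) and with scaling to pan-neuronal genes (green). Filled points have an adjusted p under 0.05. The region differences are negative under both scalings, whereas the treatment differences in peri-infarct tissue lie below 0 with TMM and above 0 with pan-neuronal scaling.

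The composition of the filament transcripts was compared through ratios within a library, in which library size cancels. Per exon kilobase, Nefh made up 7.79% ± 1.19 (SD, n = 5) of the summed 4 genes in contralateral and 5.47% ± 0.51 in peri-infarct tissue of vehicle mice, and 9.02% ± 0.77 and 5.89% ± 1.16 in HPBCD mice. The share of Nefm went from 26.1% to 20.3% and from 28.5% to 23.5%, that of Nefl from 42.2% to 45.7% and from 39.5% to 44.9%, and that of Ina from 23.9% to 28.4% and from 23.0% to 25.7%. The tail-bearing chains thus made up a smaller share in peri-infarct tissue.

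The log2 ratio of Nefh to Nefl was -2.45 ± 0.30 (SD) in vehicle contralateral and -3.07 ± 0.10 in vehicle peri-infarct libraries, a difference of -0.62 (two-sided exact permutation test, p = 0.00794, the smallest that splits of 10 libraries can give, adjusted p = 0.0317 over 12 ratio comparisons). In HPBCD mice it was -2.13 ± 0.17 and -2.95 ± 0.30, a difference of -0.82 (exact p = 0.00794, adjusted p = 0.0317), and in neither treatment did the regions overlap. The ratio of Nefm to Nefl differed by -0.46 in HPBCD mice without overlap (exact p = 0.00794, adjusted p = 0.0317). In vehicle mice its difference of -0.48 came with overlapping groups (exact p = 0.0238, adjusted p = 0.0714). These tests treat the libraries as unpaired. Paired within mice by exact sign flips, p was 0.0625 for Nefh to Nefl in both treatments and for Nefm to Nefl in HPBCD mice, the smallest that 5 mice can give, and 0.125 for Nefm to Nefl in vehicle mice, so this paired test could not have passed 0.05. Nefh to Nefl was lower in peri-infarct tissue in 5 of 5 mice of each treatment, and Nefm to Nefl in 5 of 5 HPBCD and 4 of 5 vehicle mice. In vehicle mouse 3 the log2 ratio of Nefm to Nefl was -0.97 in peri-infarct and -1.07 in contralateral tissue, against the direction of the other mice. The ratio of Ina to Nefl differed by 0.12 in vehicle mice (exact p = 0.476) and by -0.03 in HPBCD mice (exact p = 0.627), both smaller than the spread between libraries. In vehicle mice that value depended on 2 libraries, being 0.013 without peri-infarct replicate 5 (exact p = 0.913) and 0.20 without peri-infarct replicate 3 (exact p = 0.0317). Between treatments, no ratio passed the adjusted threshold, the nearest being Nefm to Nefl in peri-infarct tissue, higher by 0.24 in libraries labelled HPBCD (exact p = 0.0476, adjusted p = 0.114).

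**Figure D4:**
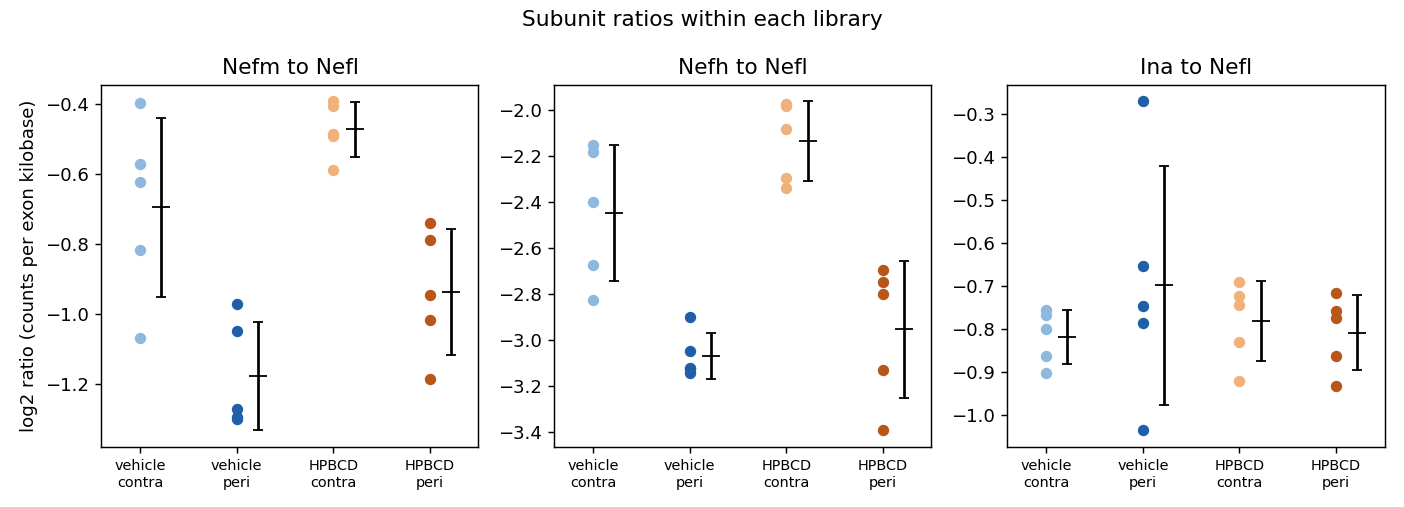
Log2 ratio of Nefm, Nefh and Ina to Nefl in each library, from counts per exon kilobase, with mean ± SD (n = 5) beside each group. Nefh to Nefl is lower in peri-infarct libraries of both treatments without overlap, whereas Ina to Nefl overlaps between all groups.

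In peri-infarct tissue the 4 genes had lower means in libraries labelled HPBCD than in vehicle libraries, but none passed the threshold and all groups overlapped. The peri-infarct libraries are the same as above. Mean levels in vehicle and HPBCD mice were 253 ± 34.8 and 189 ± 55.5 CPM for Nefl, 190.4 ± 17.4 and 166 ± 35.9 CPM for Nefm, 35.8 ± 6.42 and 30.0 ± 13.0 CPM for Nefh, and 151 ± 30.2 and 103 ± 27.3 CPM for Ina (SD, n = 5). The log2 fold changes were -0.55 for Ina (SE 0.20, adjusted p = 0.0654), -0.42 for Nefl (SE 0.19, adjusted p = 0.119), -0.26 for Nefh (SE 0.26, adjusted p = 0.482) and -0.20 for Nefm (SE 0.14, adjusted p = 0.321). Without 1 library Nefh went from -0.53 (without HPBCD replicate 2) to -0.11 (without HPBCD replicate 4) and Nefm from -0.29 to -0.12 (without the same libraries), and neither was called in any of these fits. By edgeR 0 of 4 were called, where 9.00% of 16224 genes were called lower, and at an unadjusted p under 0.05 there were 2 of 4, Ina and Nefl, against 39.2% of genes. DESeq2 called Ina, and limma voom called Ina and Nefl. Over all genes they called 4704 of 28421 and 6012 of 16224 in either direction.

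The pan-neuronal genes were lower in the same comparison, 8 of 11 called (median -0.56). Scaled to them, the sign turned for all 4 genes, with log2 fold changes of 0.42 for Nefm (adjusted p = 0.0383), 0.32 for Nefh (adjusted p = 0.171), 0.17 for Nefl (adjusted p = 0.253) and 0.06 for Ina (adjusted p = 0.703). Nefm was the 1 gene of 4 called higher on that scale, where 63.2% of all genes were called higher and the median of all genes was 0.68. That call was lost in 7 of 10 fits that each left out 1 library. The turned signs reflect the shift that this scaling gives all genes, whose median was 0.01 with TMM. From the most negative of 16224 genes Ina ranked 970 with TMM and 967 with pan-neuronal scaling, Nefl 1794 and 1614, Nefh 3462 and 2761, and Nefm 4363 and 3874. Oligodendrocyte genes summed to 6316 to 15273 CPM in vehicle and 13038 to 20029 CPM in HPBCD peri-infarct libraries (2 of 9 called higher, where 12.4% of all genes were), reactive astrocyte genes to 721 to 3680 and 3184 to 6503 CPM (4 of 7 called higher, Gfap alone at 1671 ± 851 and 3433 ± 865 CPM, log2 fold change 1.03, adjusted p = 0.0552), and fibroblast and meninges genes to 45.1 to 256 and 292 to 958 CPM (5 of 5 called higher). Their part in the values of the 4 genes was not tested.

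In contralateral cortex the means went the other way, higher in libraries labelled HPBCD for all 4 genes, and none passed the threshold. Vehicle and HPBCD means were 426 ± 29.7 and 487 ± 35.4 CPM for Nefl, 455 ± 80.3 and 600.0 ± 44.4 CPM for Nefm, 94.6 ± 23.6 and 131 ± 10.1 CPM for Nefh, and 232 ± 22.1 and 271 ± 11.0 CPM for Ina. The groups overlapped in each gene: the lowest HPBCD library for Nefh, at 119 CPM, lay just under the highest vehicle library, at 123 CPM. The log2 fold changes were 0.46 for Nefh (adjusted p = 0.503), 0.39 for Nefm (adjusted p = 0.503), 0.21 for Ina (adjusted p = 0.551) and 0.18 for Nefl (adjusted p = 0.558). By edgeR 0% of 15469 genes were called in this comparison. DESeq2 and limma voom also called 0 of 4, where they called 53 of 27466 and 0 of 15469 genes. At an unadjusted p under 0.05 edgeR gave 4 of 4, from 0.00401 for Nefm to 0.0261 for Nefl, against 7.91% of genes.

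Scaling to pan-neuronal genes left these contralateral differences positive, at 0.40 for Nefh, 0.32 for Nefm, 0.15 for Ina and 0.12 for Nefl, and again 0 of 4 and 0% of genes were called, with 2 of 4, Nefm and Nefh, under an unadjusted p of 0.05 against 9.26% of genes. On this scale the groups overlapped for Nefm, Ina and Nefl but not for Nefh, and the share of all genes without overlap was not computed. Fast-spiking interneuron genes had a median of 0.36 with 0 of 8 called, and striatal genes, high in vehicle contralateral replicate 1, a median of -1.76 with 0 of 9 called. Without that library the TMM-scaled values were 0.44 for Nefh, 0.44 for Nefm, 0.20 for Ina and 0.16 for Nefl, and without HPBCD contralateral replicate 4 they were 0.42, 0.37, 0.20 and 0.19.

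With opposite directions in the 2 tissues, the region difference was larger in mice labelled HPBCD, and the test of the difference between the treatments passed for Ina. The interaction, the region difference in HPBCD mice minus that in vehicle mice in 1 fit of all 20 libraries, was -0.77 for Ina (SE 0.22, adjusted p = 0.0333), -0.73 for Nefh (SE 0.31, adjusted p = 0.128), -0.61 for Nefl (SE 0.20, adjusted p = 0.0605) and -0.59 for Nefm (SE 0.19, adjusted p = 0.0513). Thus 1 of 4 genes was called lower, where 4.38% of 16758 genes were. With the mouse as a replicate block 3 of 4 passed, namely Ina at -0.79 (adjusted p = 0.0289), Nefm at -0.63 (adjusted p = 0.0418) and Nefl at -0.65 (adjusted p = 0.0436). In either direction 1830 of 16758 genes were called with the block, against 1577 without it. The Ina call without the block was lost in 10 of 20 fits that each left out 1 library, among them vehicle contralateral replicate 1 (adjusted p = 0.0559) and HPBCD contralateral replicate 4 (adjusted p = 0.0570), and leaving out either gave 0 of 4 genes called. Without these libraries 924 of 16972 and 704 of 16979 genes were called in either direction.

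Scaled to the pan-neuronal genes, the interaction was 0.05 for Nefl, 0.09 for Nefm, -0.08 for Nefh and -0.09 for Ina (adjusted p from 0.557 to 0.790), with 0 of 4 called by edgeR, where 59.8% of genes were called in either direction, and 0 of 4 under an unadjusted p of 0.05, against 66.5% of genes. The pan-neuronal genes themselves had a median interaction of -0.60 with TMM scaling, and 5 of 11 were called lower.

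Genes that work with neurofilaments were described from lists, beside the share of all genes called in the same direction. In peri-infarct tissue 10.5% of all genes were called higher and 9.70% lower in vehicle mice, and 30.3% and 24.3% in HPBCD mice. Between treatments in peri-infarct tissue 12.4% were called higher and 9.00% lower. Of 7 other intermediate filament genes, which serve glia, vessels and peripheral neurons, 2 were called higher in peri-infarct tissue of vehicle mice and 0 lower. These were Gfap, the filament of astrocytes, at a log2 fold change of 2.88, and Vim, which encodes vimentin, at 2.87. In HPBCD mice 5 of 7 were called higher, led by Gfap at 4.53, Vim at 4.32 and Nes, the progenitor filament nestin, at 0.88. Prph, the filament gene of peripheral neurons, was low throughout, with group means of 1.09 to 1.92 CPM, and was not called in either treatment.

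Between regions, axonal microtubule, spectrin and growth genes shared the direction of the 4 genes in part and at smaller size. In vehicle mice 6 of 24 were called lower and 1 higher (median -0.08), with the stathmin genes Stmn3 at -0.58 and Stmn1 at -0.52 and the collapsin response mediator gene Dpysl2 at -0.44, and with the tubulin gene Tubb2b at 0.42. In HPBCD mice 16 of 24 were called lower and 1 higher (median -0.50), with Stmn3 at -1.32, Stmn1 at -1.25 and Stmn2 at -1.01, and Tubb2b at 0.55. None of the genes called lower in this list fell as far as Nefh or Nefm did in the same treatment. Between treatments in peri-infarct tissue 11 of 24 were called lower in libraries labelled HPBCD, with Tuba4a at -0.75, Tubb3 at -0.72 and Stmn2 at -0.68. There the list was not smaller in size, with a median of -0.38 against -0.34 for the 4 genes, of which 0 were called.

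Kinases, phosphatase and turnover genes of neurofilaments went both ways. In vehicle mice 5 of 17 were called higher and 5 lower (median -0.06). The lower ones included Cdk5r2 and Cdk5, an activator of the tail kinase Cdk5 and the kinase itself, at -0.37 and -0.33. The higher ones included Arhgef28, whose product binds neurofilament light chain RNA, at 0.86, Mapk3, the kinase ERK1, at 0.62, and Trim2, a ubiquitin ligase for the light chain, at 0.34. In HPBCD mice 10 of 17 were called lower, led by Cdk5r2 at -0.9999, Cdk5r1 at -0.69 and Cdk5 at -0.67, and 3 higher, among them Arhgef28 at 1.36 and Mapk3 at 0.75. Between treatments in peri-infarct tissue 6 of 17 were lower and 0 higher, with Cdk5r2 at -0.66, the deubiquitinase gene Uchl1 at -0.60 and Cdk5r1 at -0.53.

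Axonal transport motors, which carry neurofilaments and other cargo, were lower in part. In vehicle mice 3 of 15 were called lower and 0 higher (median -0.03), namely the kinesin light chains Klc2 at -0.63 and Klc1 at -0.25 and the kinesin heavy chain Kif5c at -0.38. In HPBCD mice 9 of 15 were called lower (median -0.39), with Klc2 at -1.35, Kif5c at -1.001 and the myosin gene Myo5a at -0.77. In the interaction 4 of 15 motors were called lower, with Klc2 at -0.74, Myo5a at -0.67 and Kif5c at -0.64. Of the microtubule, spectrin and growth genes 6 of 24 were called lower there, and of the kinase and turnover genes 3 of 17. Of the other intermediate filament genes 3 of 7 were called higher. Over all 16758 genes 4.38% were called lower and 5.03% higher in the interaction. In contralateral cortex 0 genes of these 4 lists were called between treatments.

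Among marker lists of neurons, the fast-spiking interneuron genes came nearest to the 4 genes or passed them. In vehicle mice 7 of 8 were called lower (median -1.29), among them Pvalb, the calcium buffer parvalbumin, at -2.26, Syt2, a synaptotagmin, at -2.07, and the potassium channel subunit gene Kcnab3 at -2.27. In HPBCD mice 8 of 8 were called lower (median -2.07). Excitatory cortical neuron genes had medians of -0.32 and -1.06, with 1 and 6 of 7 called lower, and layer 5 projection neuron genes 0.38 and 0.39, with 2 and 3 of 6 called higher and 0 lower. The median of the 4 genes was -1.02 in vehicle and -1.62 in HPBCD mice. Scaled to the pan-neuronal genes, the fast-spiking list kept medians of -0.97 and -1.06, whereas the excitatory list was at -0.00065 and -0.17. Markers of other cells also differed between the regions. Striatal projection neuron genes summed to 238 to 288 CPM in contralateral and 784 to 2291 CPM in peri-infarct libraries of HPBCD mice, with 9 of 9 called higher (median 2.42), and in vehicle mice to 231 to 3904 and 388 to 2219 CPM, with 0 of 9 called. The 3904 CPM was contralateral replicate 1, and the other 4 vehicle contralateral libraries lay between 231 and 314 CPM. Layer 5 genes also summed highest in that library among contralateral libraries, at 402 CPM against 185 to 310 CPM. The part of striatal tissue in the layer 5 values was not tested, so these do not show whether layer 5 neurons were kept. In HPBCD mice 9 of 9 oligodendrocyte genes (median 1.14), 7 of 7 reactive astrocyte genes (median 4.88), 8 of 8 microglia and macrophage genes (median 1.91) and 5 of 5 fibroblast and meninges genes (median 4.05) were also called higher in peri-infarct tissue. In vehicle mice the same lists had 0 of 9, 7 of 7, 8 of 8 and 1 of 5 called higher. The part of any of these cell types in the values of the 4 genes was not tested.

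**Figure D5:**
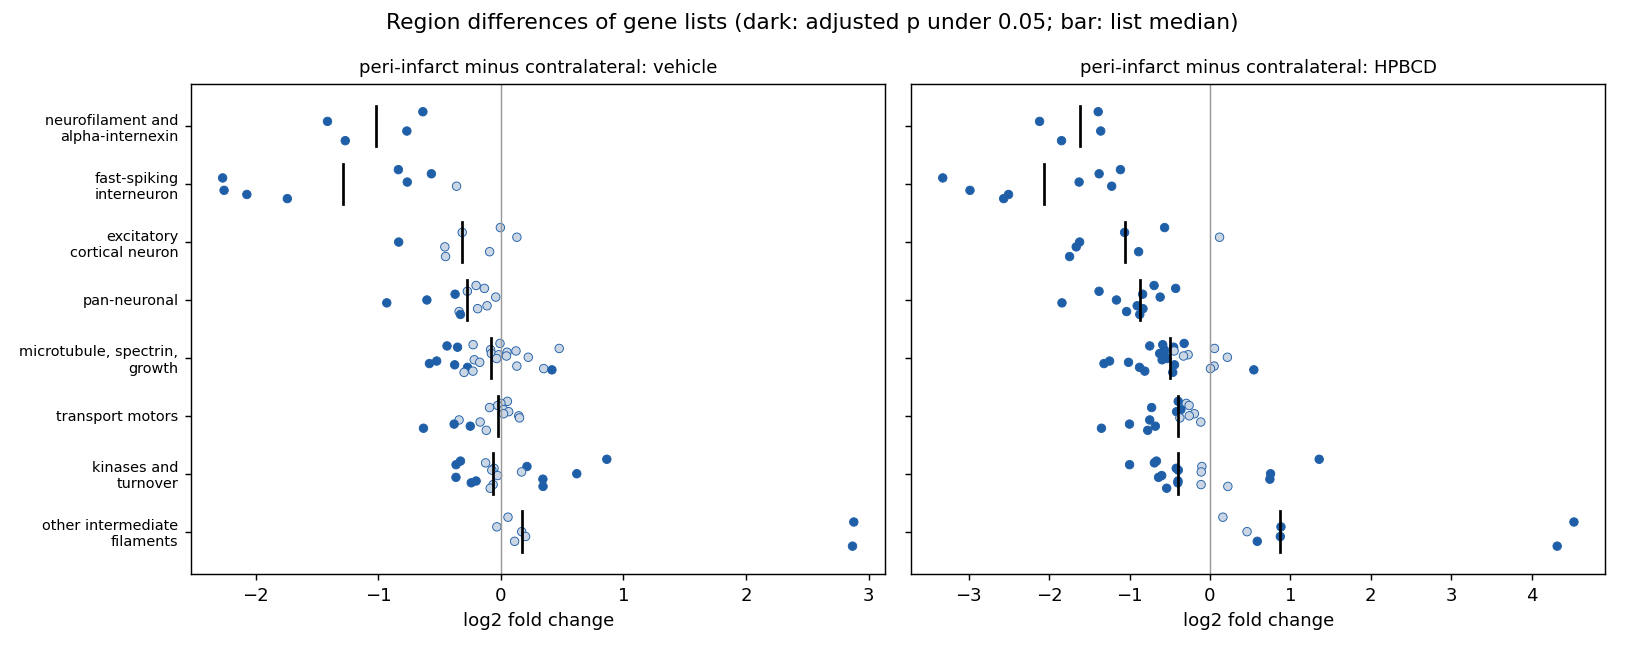
Log2 fold change, peri-infarct minus contralateral, of the 4 genes and of 7 gene lists in vehicle (left) and HPBCD (right) mice with TMM scaling. Points are genes, dark where the adjusted p was under 0.05, and black bars are list medians. In both panels the medians of the fast-spiking list and of the 4 genes are the lowest of those drawn, while single genes of the lists overlap, Snap25 lying below Nefl and Ina.

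Across the 20 libraries, the mean log2 CPM of the 4 genes was followed closely, among 11790 genes, by Scn1a and Vamp1 (Pearson r = 0.991 each), 5730409E04Rik (r = 0.984) and Nat8l (r = 0.983). Scn1a encodes a voltage-gated sodium channel, Vamp1 a synaptic vesicle protein and Nat8l the enzyme that makes N-acetylaspartate. Scn1a measured 196 ± 18.3 CPM in vehicle contralateral and 89.3 ± 14.0 CPM in vehicle peri-infarct libraries, and 271 ± 29.0 and 67.2 ± 18.0 CPM in HPBCD libraries (SD, n = 5). These values describe libraries that share mice and regions, and much of the likeness is the difference between groups. With the group means subtracted the closest were Bcat1 (r = 0.949), Hapln4 (r = 0.924), Klc2 (r = 0.919), Vamp1 (r = 0.908) and Scn1a (r = 0.902). Between pairs of the 4 genes r was 0.914 to 0.975 over the 20 libraries and 0.562 to 0.816 within groups, lowest for Nefm with Ina.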

How the data were processed

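The authors converted reads with bcl2fastq 2.19, trimmed them with Trimmomatic 0.32, aligned 75 bp read pairs from TruSeq stranded mRNA libraries to GRCm38 with STAR 2.5.2b and deposited one HTSeq count per gene and library; they tested with DESeq2. The annotation release and strand option are not given in the sources used here. The 5 summary lines per table were left out: reads in no feature were 4.39% to 5.86% and ambiguous reads 3.94% to 4.16% in 19 libraries, and 9.50% and 8.03% in HPBCD contralateral replicate 4, and reads not unique 16.6% to 24.3%. Of 46078 identifiers 97.97% were found in GENCODE M21, which gave symbols, coordinates and exon lengths.

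Counts were tested with edgeR 4.0.16 (R 4.3.3, filterByExpr, TMM, quasi-likelihood, Benjamini-Hochberg adjustment over all genes tested, threshold 0.05), each 2-group comparison on its 10 libraries and the interaction on all 20. A second fit scaled each library to the geometric mean of 11 pan-neuronal genes. CPM is TMM-scaled over 20 libraries, with a prior count of 2 for log2 CPM. On simulated 2-fold changes of 200 of 15619 genes in the vehicle region comparison, 73.0% were called with 3.31% false calls, and 74.5% with 3.87% under pan-neuronal scaling. Depth was 14445021 to 22171627 gene counts, and 3 counts correspond to 0.135 to 0.208 CPM. No pair of tables was identical.

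The 4 genes, the lists and the tests were chosen with earlier results of these data known. Genes named from the 4 functional lists were up to 3 with the largest rise and 3 with the largest fall among those with an adjusted p under 0.05 in a comparison, and 5 genes were named by correlation, with and without group means, among genes of at least 5 CPM. Some genes that this rule names are not reported here. Marker genes named in the text were chosen after their values were seen. Region pairs rest on the mouse identifier shared by the deposited tables (mean correlation of deviations 0.163 over 10 pairs, 6 over 0.1). Between treatments a replicate number is only a name. P-values measure the spread between these mice. Alternatives were DESeq2 1.42.0, limma 3.58.1 voom with quality weights, other size factors, no filter or at least 10 counts in every library, all groups in 1 fit, the replicate block, a second neuronal list and leaving out each library.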

Additional observations from a re-analysis of the deposited data

Results flagged for a closer look

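The interaction of region and treatment for Ina was the 1 result of the 4 genes marked for a closer look, because the test of the difference between the treatments' region differences passed. Its region difference was -0.64 in vehicle mice and -1.39 in mice labelled HPBCD, each from its own fit, and the interaction in the fit of all 20 libraries was -0.77 on the log2 scale (edgeR, adjusted p = 0.0333). The peri-infarct library lay below the contralateral library in 5 of 5 mice of each treatment, at 45.3% to 72.7% of contralateral in vehicle and 24.2% to 49.1% in HPBCD mice. Over the alternative fits that kept all libraries the adjusted p was 0.00529 to 0.0361, over fits without 1 library 0.0101 to 0.0698, and with scaling to pan-neuronal genes the interaction was -0.09 (adjusted p = 0.557).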

How the results depend on the processing

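Both region comparisons called 4 of 4 genes lower under each alternative with TMM or another size factor. Over all genes the calls in either direction ranged from 2000 to 5065 in vehicle and from 7678 to 9708 in HPBCD mice. Of 396 alternative values from those fits of all comparisons, 361 kept their direction and side of the threshold, 10 lost the call, 25 gained one and 0 changed sign. With pan-neuronal scaling 266 of 280 did, 8 lost the call, 1 gained one and 5 changed sign. Of 126 ratio values, judged by an unadjusted exact p under 0.05, 110 kept both, 11 lost the call, 4 gained one and 1 changed sign. In the treatment comparison of peri-infarct tissue the count of called genes went from 0 to 1 with DESeq2, to 2 with limma voom, to 2 with all groups in 1 fit and to 0 to 2 without 1 library. Over all genes the calls in either direction went from 3471 of 16224 to 4704 of 28421, 6012 of 16224 and 4970 of 16758 in the same order. They were 823 to 5339 without 1 library. In the interaction the count of the 4 genes went from 1 to 3 with DESeq2, to 4 with limma voom and to 0 to 4 without 1 library. Over all genes the calls went from 1577 of 16758 to 2507 of 30111, to 4110 of 16758 and to 529 to 3121. Leaving out HPBCD peri-infarct replicate 2 gave 4, with 3121 of 16945 genes called. Leaving out vehicle peri-infarct replicate 3 gave 3, with 2851 of 16943 genes called. With pan-neuronal scaling the count in the peri-infarct treatment comparison, 1, was 0 to 2 without 1 library. Over all genes it was 10266 of 16224, and 6131 to 12102 without 1 library. With the replicate block the counts were 2 in the peri-infarct treatment comparison, where the numbers pair no samples (Nefl adjusted p = 0.0302, Ina adjusted p = 0.0155), and 3 in the interaction, and the block changed no other call of the 4 genes in the edgeR fits. Over all genes the block gave 4375 of 16224 and 1830 of 16758 calls in these comparisons. Signs changed in values near 0: Ina between treatments in peri-infarct tissue with pan-neuronal scaling (-0.0022 with the second neuronal list, -6.08e-05 to 0.11 without 1 library), the interaction of Nefl (-0.029 with that list) and of Nefh (-0.20 to 0.055 without 1 library, of which 0.040 without vehicle contralateral replicate 4), and Ina to Nefl between regions in HPBCD mice (-0.061 to 0.0045 without 1 library). The cause was not tested. The lowest count of the 4 genes in any library was 315.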
